A study of Homo sapiens with 6 samples.

Results

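The small nucleolar RNAs U8, U13, U14, U17 and U22 were examined as a group. They are needed for the cleavage of the ribosomal RNA precursor, whereas most snoRNAs guide the modification of single bases. The group comprised 10 gene symbols: SNORD118 (U8), SNORD13 (U13), SNORD14A to SNORD14E (5 U14 genes), SNORD22 (U22), and SNORA73A and SNORA73B (U17). Every listed position inside these genes in GENCODE v44 and on their own strand was taken. The symbols gave 11 gene loci, because SNORD22 is also the symbol of a second locus in the SNHG1 gene. Of 974 G, A and C positions in the 11 loci, 815 were listed under imbalanced dNTP, out of 176343 listed in the whole series, and 744 were listed under balanced dNTP, out of 246881.

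U8 is required for the maturation of 28S and 5.8S rRNA in the pre-60S particle. U13, U14, U17 and U22 act in the processing of 18S rRNA, and U14 also guides a 2′-O-methylation of 18S rRNA. All are box C/D snoRNAs except U17, which is a box H/ACA snoRNA. U8 and U13 have promoters of their own and carry a trimethylguanosine cap, whereas the U14, U17 and U22 RNAs are trimmed from introns of host transcripts.

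The RNA was chromatin-associated RNA (caRNA) of HepG2, a human liver cancer cell line, depleted of rRNA and of RNA shorter than 200 nt, fragmented and ligated to an adapter. From each of 3 replicates, portions of the ligated RNA went into both an imbalanced reverse transcription (1 mM dATP, the remaining dNTPs at 2 µM each) and a balanced reverse transcription (1 mM of every dNTP), which served as the input, for 6 libraries in all. In Nm-mut-seq, excess dATP leads the enzyme to misread G, A and C that carry a 2′-O-methyl group, so that the read has T. The mutation ratio, reads with T over depth at a position, is given in percent, as mean ± SD (n = 3 replicates). Only positions with reads of T are listed, and U cannot be assessed.

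Summed over listed positions, the depth was between 17063930 and 22485865 per imbalanced library and between 22974020 and 34367262 per balanced library. Of 8 liver genes (ALB, AFP, APOA1, APOA2, APOB, FGB, TTR and TF), 6 had listed positions under imbalanced dNTP, and FGB and TTR had none. All listed reference bases equalled hg38. Of the snoRNAs studied here, only SNORA73A (206 nt) and SNORA73B (204 nt) exceed the 200 nt of the size selection. The effect of that selection on the depth of the other genes was not tested.

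The sequences below carry the positions on which the results turn. They are hg38 sequence on the strand of the gene, 5′ to 3′, with T standing for U, and capitals mark the positions named in the text. The U17 and U22 genes are shown whole, since their highest positions lie along the entire RNA, with the 3 highest positions of each in capitals. SNORA73A lies at chr1:28507366-28507571 (plus strand) in the RCC1 and SNHG3 genes and within an SNHG3 exon. SNORA73B lies at chr1:28508559-28508762 (plus strand) in the same genes. SNORD22 lies at chr11:62852910-62853035 (minus strand) in exons of SNHG1 transcripts.
SNORA73A: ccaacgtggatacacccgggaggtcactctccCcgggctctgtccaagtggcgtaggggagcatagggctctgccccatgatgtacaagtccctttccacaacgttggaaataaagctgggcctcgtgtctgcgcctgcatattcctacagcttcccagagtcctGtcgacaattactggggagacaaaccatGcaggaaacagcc
SNORA73B: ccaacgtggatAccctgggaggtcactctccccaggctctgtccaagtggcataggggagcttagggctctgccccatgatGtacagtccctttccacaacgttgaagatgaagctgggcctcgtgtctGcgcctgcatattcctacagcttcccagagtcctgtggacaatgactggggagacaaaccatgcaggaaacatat
SNORD22: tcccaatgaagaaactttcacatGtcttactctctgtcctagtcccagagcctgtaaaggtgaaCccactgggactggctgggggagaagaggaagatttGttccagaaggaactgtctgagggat

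For SNORD118, which overlaps an untranslated exon of TMEM107 on the minus strand, the ends and the window around its highest position are shown. The 5′ window is chr17:8173568-8173588, the window around G108 is chr17:8173470-8173490 and the 3′ window is chr17:8173452-8173471. The 5′ and 3′ windows begin 1 base before and end 2 bases after the GENCODE gene, at the limits of the longer RefSeq entry (137 nt).
SNORD118 5′ end: Atcgtcaggtgggataatcct
SNORD118 around G108: atcaggacttGcaacaccctg
SNORD118 3′ end: tgattgctcctgtctgattC

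The first 24 bases of the 5 U14 genes are shown because their highest position differs between copies, with position 6 in capitals. SNORD14A (chr11:17074721-17074744) and SNORD14B (chr11:17075845-17075868) lie in RPS13, and SNORD14C (chr11:123059399-123059422), SNORD14D (chr11:123058972-123058995) and SNORD14E (chr11:123058138-123058161) lie in HSPA8. All are on the minus strand. The letters TGATGA of box C follow position 6 directly in all 5 copies.
SNORD14A: tcactAtgatgattggttgccaga
SNORD14B: tcactGtgatgatggttttccaac
SNORD14C: tcgctGtgatgagtgattgttaaa
SNORD14D: tcgctAtgatgatggattccaaaa
SNORD14E: tcacaAtgatgaatggtccaaaac

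The RNAs differed widely in depth. Depth is given per position, so that genes of different length can be set side by side, but in bulk RNA fewer molecules per cell and fewer cells with the RNA cannot be told apart. SNORD118 was the deepest, with a median depth over its listed positions of 3470, 2797 and 2263 reads in the imbalanced libraries of replicates 1, 2 and 3. SNORA73B (2590, 2201 and 2042) and SNORA73A (2430, 2010 and 1970) followed, and then SNORD14C (2441, 1891 and 1756), whose values overlapped those of SNORA73A. SNORD13 (822, 698.5 and 685.5) and SNORD22 (805, 626 and 608) had similar depths.

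Of the U14 genes, SNORD14C was far deeper than SNORD14D (340.5, 418 and 440.5), SNORD14E (264.5, 238.5 and 244.5) and SNORD14A (146, 133 and 134.5) in every imbalanced library. SNORD14B was nearly without reads (28, 19 and 19) and had 9 listed positions. The second SNORD22 locus had none under imbalanced dNTP and 2 under balanced dNTP. In the mapping, a read could align to up to 4 places with up to 3 mismatches, so reads of near-identical copies may have been assigned to another copy. No window of 50 nt was shared exactly between U14 genes, which were 75.3 to 85.9% identical. SNORA73A and SNORA73B were 93.2% identical and shared 5 such windows, so values that set these U17 copies against each other are uncertain.

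**Figure D1:**
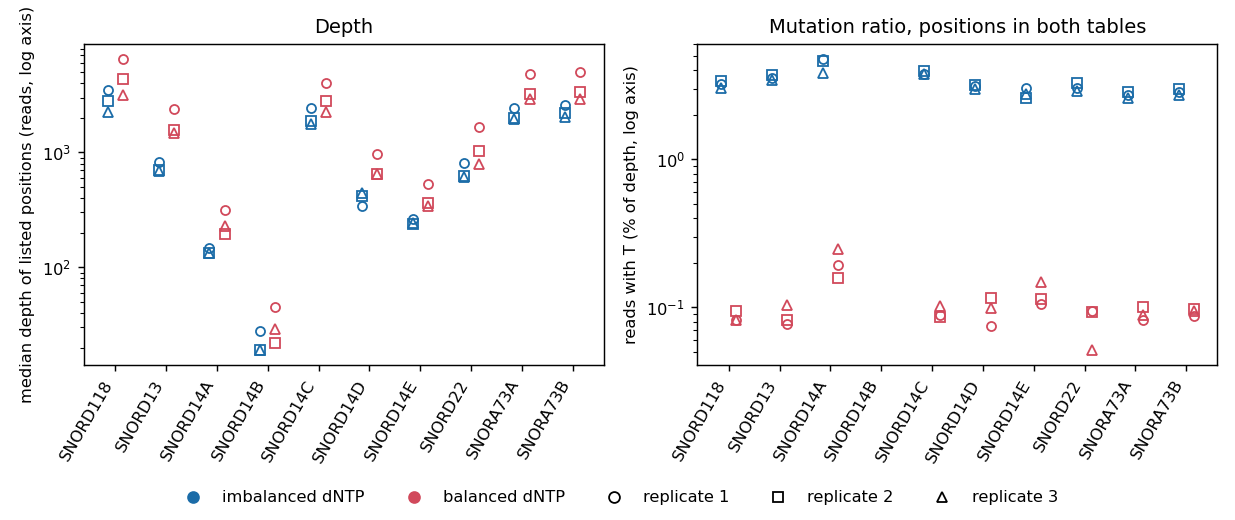
Median depth of the listed positions (left, reads, log axis) and percent of reads with T over positions listed under both reactions (right, log axis) for each gene. Points are single libraries, blue for imbalanced and red for balanced dNTP. SNORD14B, with 1 position listed under both, has no value at right, and in every other gene all 3 imbalanced libraries lie above all 3 balanced libraries.

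Depth also varied along the RNAs. In SNORD118, the median depth of the first 20 nt was 661, 514 and 471 reads under imbalanced dNTP, against 3828, 3084 and 2387 in the inner part. The 5′ end thus had 0.179 ± 0.0162 of the inner depth, and 0.24 ± 0.0212 under balanced dNTP. SNORD13 showed a lower 5′ end too (0.466 ± 0.0292 of its inner depth under imbalanced dNTP). It also had a dip within the RNA: depth fell from 1290, 1134 and 1156 reads at position 38 to 484, 392 and 406 at position 62, and was 1174, 1013 and 918 at position 84. The same dip was shallower under balanced dNTP (3122, 2180 and 2031 reads at position 38 and 2188, 1411 and 1270 at position 62).

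The opposite shape was seen in SNORD14C, where the 5′ 20 nt had 4172, 3645 and 2876 reads and the inner part 2305, 1858 and 1632. Its 5′ end had 1.84 ± 0.104 times the inner depth under imbalanced dNTP and 1.12 ± 0.0262 times under balanced dNTP. SNORA73B had a 5′ end near its inner depth (1.2 ± 0.0618 times) and a lower 3′ end (0.533 ± 0.0196 times). The depth of SNORD14D fell between positions 66 and 67 by more reads in the imbalanced library of replicate 1 (from 334 to 228) than in those of replicates 2 and 3 (from 565 to 544 and from 594 to 575).

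**Figure D2:**
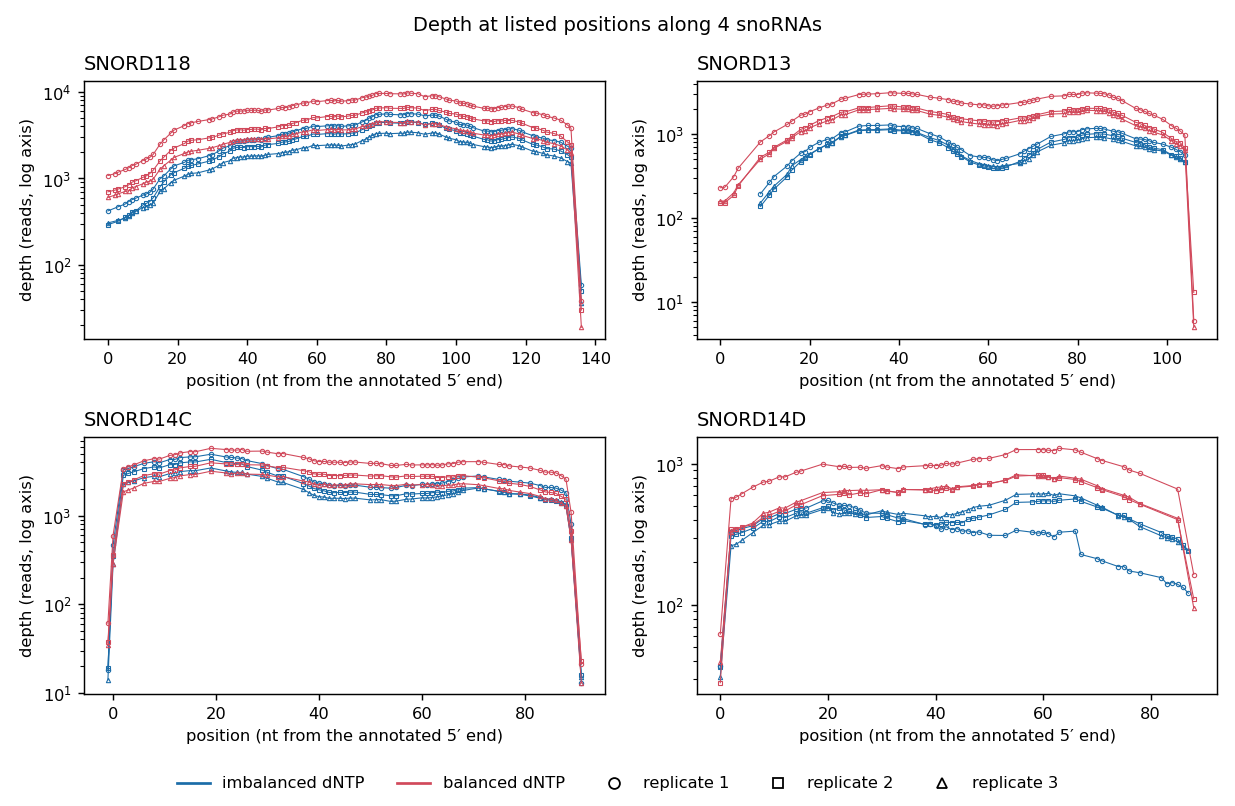
Depth (reads, log axis) against position for 4 of the RNAs, with a line for each library, blue for imbalanced and red for balanced dNTP. SNORD118 rises from its 5′ end, SNORD13 dips near position 62, SNORD14C is highest near its 5′ end, and SNORD14D separates replicate 1 from the other imbalanced libraries towards the 3′ end.

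The depth under imbalanced dNTP relative to balanced dNTP asks whether these RNAs were read less well in 1 reaction. The median ratio over the positions in both tables was 0.506, 0.639 and 0.687 in replicates 1, 2 and 3, close to that over all such positions (0.5, 0.661 and 0.715). Relative to all positions, the log2 ratio of the group was -0.029 ± 0.040 (exact paired permutation test, two-sided, p = 0.5). SNORD13 lay below all positions in every replicate (log2 difference -0.50 ± 0.062), and SNORD14C (0.33 ± 0.114) and SNORD22 (0.119 ± 0.0586) above. With 3 pairs, 0.25 is the smallest p the exact test allows, so that no single comparison over replicates can reach 0.05. SNORD13, SNORD14C and SNORD22 reached it, as did SNORD14B on 1 position.

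Reads with T were more frequent under imbalanced dNTP in every RNA that had enough depth to compare. Over the 728 positions listed under both reactions, 3.06, 3.19 and 2.91% of the reads had T in the imbalanced libraries, against 0.085, 0.0961 and 0.0905% in the balanced libraries. The difference was 2.96 ± 0.137 percentage points (exact paired permutation test, p = 0.25). The reactions did not overlap. Over all 35761 positions listed under both, the shares were 3.47 ± 0.112% and 0.208 ± 0.0075%, also without overlap. That difference was 3.26 ± 0.1045 points, larger than in these genes. At a depth of at least 100, the imbalanced share was 3.05% in these genes and 3.3% over all such positions. It was lower in these genes in all 3 replicates, by 0.245 ± 0.0332 points. Over these genes together, other mismatches did not separate the reactions in the same way, with 0.24 ± 0.00815% under imbalanced and 0.237 ± 0.0034% under balanced dNTP. In SNORD13 they were higher under imbalanced dNTP without overlap (0.301 ± 0.0131 against 0.234 ± 0.0165%), a far smaller difference than for T.

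Among the genes with more than 1 position listed under both reactions, the share of reads with T was highest in SNORD14A (4.79, 4.64 and 3.8% in replicates 1, 2 and 3) and next in SNORD14C (3.76, 3.92 and 3.74%). SNORD13 had 3.54, 3.72 and 3.42%. SNORD118 had 3.25, 3.37 and 3.03%, which was lower than SNORD13 in each replicate by 0.341 ± 0.0497 percentage points. SNORD14D (3.11, 3.15 and 2.97%) and SNORD22 (3.03, 3.3 and 2.88%) did not differ in a constant direction, nor did SNORA73B (2.84, 2.97 and 2.74%), SNORD14E (3.02, 2.62 and 2.75%) and SNORA73A (2.73, 2.83 and 2.59%) as neighbours in this order. The other neighbouring pairs kept their order in all 3 replicates, each with p = 0.25 by the exact paired permutation test. The order depended on weighting by depth: with the mean of the position ratios, SNORD14A stayed above SNORD14C and SNORD13 above SNORD118 in all 3 replicates, whereas SNORD14C and SNORD13, and SNORD118 and SNORD14D, had no constant direction. SNORD22 was then below SNORA73B in all 3 (by 0.0893 ± 0.0299 points). In these genes the balanced libraries had between 0.0798% (SNORD22) and 0.199% (SNORD14A) on average. All these shares cover only positions listed under both reactions, and listing needs reads with T. Such positions were 23 of 57 G, A and C positions in SNORD14A, 35 of 61 in SNORD14E and 45 of 58 in SNORD14D, but 61 of 61 in SNORD14C. The shallow copies are thus compared over a selected part of their positions, and the effect on the order was not tested.

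To call positions, the criteria of the study were applied except for the one on the background of the spike-in: a depth of at least 10, at least 3 reads with T, and a ratio over 3 times that of the balanced library in all 3 replicates. Of the 815 listed positions, 712 (87.4%) passed, against 29651 (16.8%) of all listed positions. How many would pass with the spike-in criterion was not tested. The depths differ, and at a depth of at least 100 the shares were 89.4% (707 of 791) for these genes and 75.8% for all. Passing positions numbered 156 in SNORA73A, 154 in SNORA73B, 88 in SNORD118, 86 in SNORD22 and 61 each in SNORD13 and SNORD14C. The shallower copies had fewer, with 44 in SNORD14D, 37 in SNORD14E, 25 in SNORD14A and 0 in SNORD14B. A position not listed under balanced dNTP had a ratio of 0 there and so met the criterion on the balanced library. With that listing required, 662 positions of these genes and 18922 of the series passed. SNORD14D then had 33, SNORD14E 23, SNORD14A 13, SNORD22 74 and SNORA73B 153, and the other genes kept their counts. In SNORD14C, all 61 G, A and C positions of the gene passed. Without the spike-in background, a passing position shows more T under imbalanced dNTP and is not by itself a call of a 2′-O-methyl group.

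Mutated and unmutated reads were also tested with edgeR at the 32284 positions listed under both reactions that had 10 or more reads in each library. Of these, 73.9% had a higher mutated share under imbalanced dNTP (adjusted p under 0.05) and 0.0558% a lower one. Of the 728 tested positions of the snoRNAs, 710 were higher and 0 lower. The median log2 change was 4.74, against 3.94 over all positions tested. At a depth of at least 50, 713 of 727 positions were higher, against 91.5% of all. Every tested position was higher in SNORD13 (64), SNORD14C (61) and SNORA73B (158), and 163 of 164 in SNORA73A, 93 of 95 in SNORD118 and 79 of 82 in SNORD22. SNORD14A had 18 of 23, SNORD14D 42 of 45 and SNORD14E 32 of 35.

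Most passing positions had low ratios, and high ratios were about as frequent as in the series at like depth. A ratio of 5% or more in each replicate was found at 110 of the 815 listed positions (13.5%), against 5.27% of all listed positions. At a depth of at least 100 the shares were 13.7% (108 of 791) and 13.4%. A ratio of at least 10% was found at 13 positions (1.6%), against 1.69% of all listed positions, and at a depth of at least 100 the shares were 1.64% and 1.95%. The 13 lay in SNORA73B (4), SNORA73A, SNORD14C and SNORD22 (2 each), and SNORD118, SNORD13 and SNORD14A (1 each). Of them, 10 were G, 1 was A and 2 were C.

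**Figure D3:**
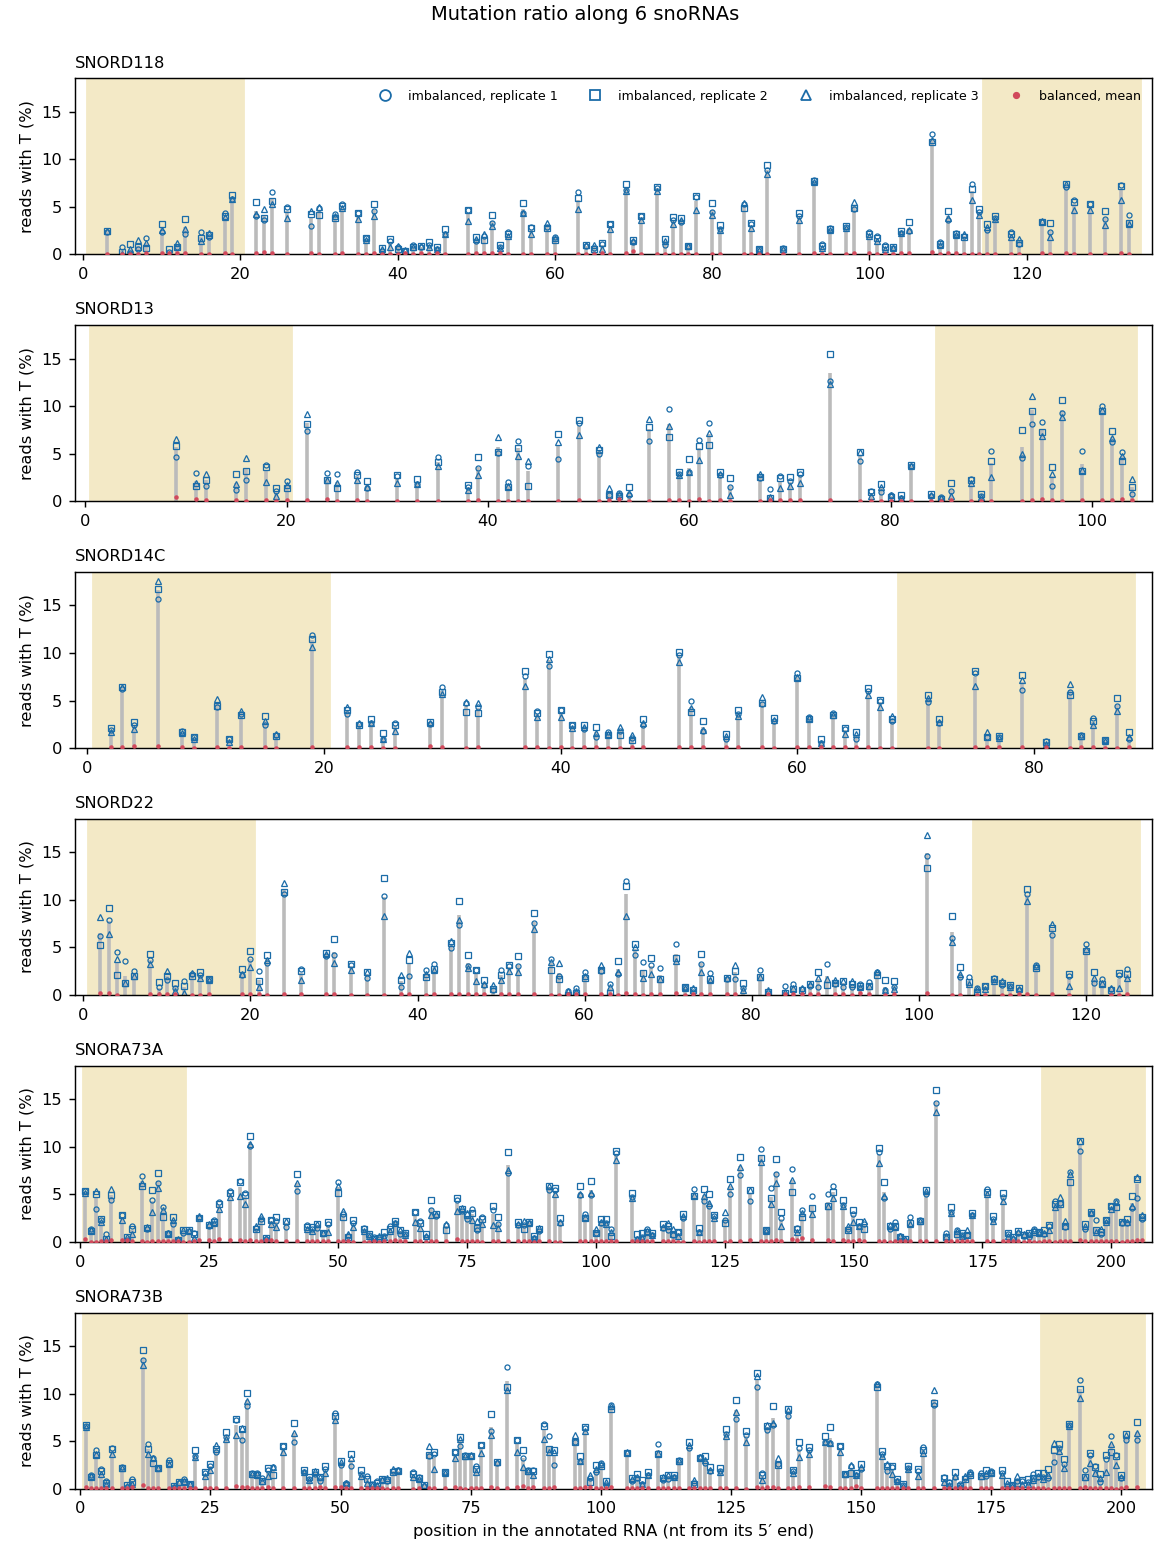
Mutation ratio (percent of reads with T) against position in 6 RNAs. Blue symbols are the imbalanced replicates, grey bars their mean, red points the mean of the balanced libraries, and shaded bands the first and last 20 nt. Most positions lie below 5%, single positions stand out near 10 to 17% in all 3 replicates, and the balanced values lie at the axis.

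In SNORD118, the highest position inside the gene was G108, with 449 of 3547, 335 of 2835 and 281 of 2337 reads with T (12.2 ± 0.439%), against 0.252 ± 0.136% under balanced dNTP. The log2 change was 5.92 (SE 0.182) with an edgeR adjusted p of 6.4e-227. G87 (8.91 ± 0.498%) and G93 (7.7 ± 0.0836%) came next. All 3 lie in the 3′ part of the RNA, and the U8 replicates did not overlap their balanced libraries at any of these positions.

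The base that begins the RefSeq entry of U8, and would stand beside its cap, gave a ratio above that of every position inside the gene. It lies 1 base before the GENCODE gene (position 0, A, chr17 8173588). This position and the following one were chosen after their values were seen. T was read in 137 of 421, 106 of 292 and 112 of 306 reads under imbalanced dNTP, which is 32.5% (Wilson 95% interval 28.2 to 37.2), 36.3% (31 to 42) and 36.6% (31.4 to 42.1), intervals that cover counting error only. Under balanced dNTP, T was read in 11 of 1082, 6 of 701 and 3 of 603 reads. The means were 35.1 ± 2.26% and 0.79 ± 0.266%, with a log2 change of 5.95 (SE 0.282, edgeR adjusted p 1.5e-96). Mismatches other than T were few there, at 1, 2 and 4 reads under imbalanced dNTP. The depth at this base was close to that of position 3 (472, 321 and 328 reads). No base just before it was listed under imbalanced dNTP, and the part of read ends in its ratio was not tested.

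The last base of the RefSeq entry, 2 bases after the GENCODE end (position 136, C, chr17 8173452), gave a ratio of 59.1 ± 6.63%, but on few reads of mixed kind. T was read in 34 of 58, 33 of 50 and 19 of 36 reads, and the reference base in 13, 7 and 6. Under balanced dNTP the ratio was 19.6 ± 10.8%, and 20, 12 and 6 of 38, 30 and 19 reads had a mismatch other than T. The position had a log2 change of 2.76 (SE 0.815, edgeR adjusted p 0.0013) and did not meet the criterion of 3 times the input in every replicate. Depth fell at the annotated end, from 2247, 1781 and 1507 reads at position 133 to the 58, 50 and 36 at position 136.

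**Figure D4:**
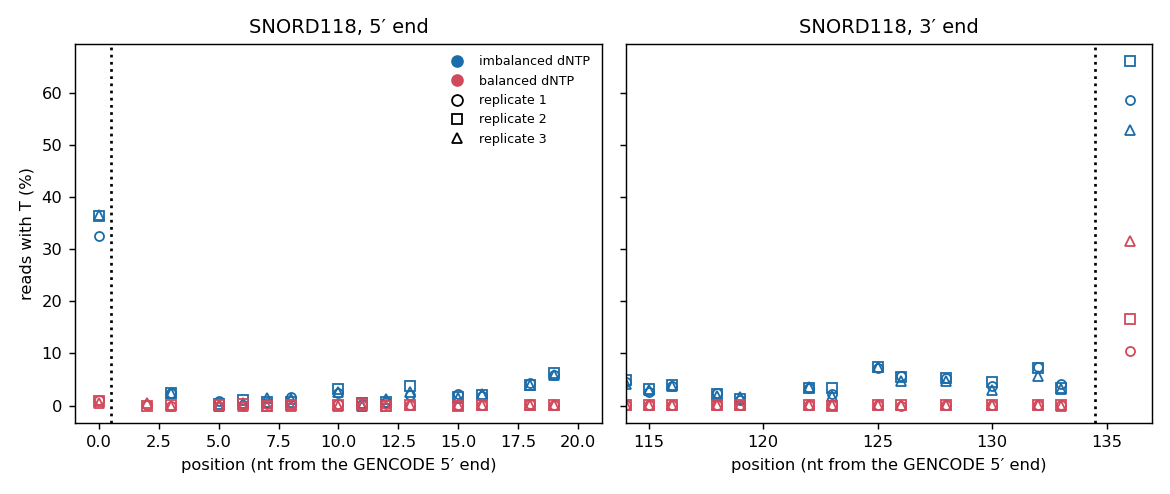
Mutation ratio (percent of reads with T) in the first and last 20 nt of SNORD118 and the bases beyond, with dotted lines at the GENCODE ends. The base at position 0 lies at 32.5 to 36.6% in the imbalanced libraries (blue) and near 0 in the balanced libraries (red), while position 136 is raised in both.

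SNORD13 (U13) is the other RNA here with its own promoter and cap. Its highest positions were G74 (12.7, 15.5 and 12.3%, mean 13.5 ± 1.76%), G101 (9.69 ± 0.284%) and G97 (9.6 ± 0.949%). G101 and G97 lie within 8 nt of the 3′ end, and G101 falls in the letters CTGA of box D. Balanced values at the 3 positions were 0.134, 0.119 and 0.0709%. The first position of SNORD13 listed under imbalanced dNTP was position 9, so that the base beside its cap has no value under that reaction. At position 1, an A, the balanced libraries had 233, 153 and 160 reads. Position 0, before the annotated start, had 230, 150 and 160 there and was not listed under imbalanced dNTP either. Which of these bases begins the RNA was not tested.

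Positions were not ranked by the difference between the U14 copies. At position 6, the base before box C, the copies differed in base and in ratio. SNORD14C has a G there, the highest position of all 712 that passed, with T in 607 of 3881, 566 of 3390 and 472 of 2678 reads (16.7 ± 0.993%) against 0.203 ± 0.023% under balanced dNTP (log2 change 6.55, SE 0.196, edgeR adjusted p 1.9e-239). SNORD14A has an A at the aligned position (A6G, counted from the 5′ end), with 16 of 122, 12 of 115 and 3 of 92 reads with T (8.94 ± 5.1%). SNORD14D and SNORD14E also have A, at 7.05 ± 1.96% and 5.13 ± 0.498%. The 3 replicates of SNORD14C lay above all replicates of the other deep copies at this position. SNORD14B, also a G, had 0 of 16, 1 of 11 and 3 of 14 reads with T, too few to place.

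G19 was the next highest in SNORD14C (11.9, 11.5 and 10.6%) and the highest in SNORD14A (16.7, 17.3 and 8.23%). The SNORD14A replicates at G19 spread over 28 of 168, 29 of 168 and 13 of 158 reads, so that its mean of 14 ± 5.05% did not differ from that of SNORD14C beyond their spread. Position G50 of SNORD14C had 9.67 ± 0.562%. The sequence CCACC occurs in the other copies with its A among the highest positions: A39 in SNORD14A (12.5 ± 3.93%), A40 in SNORD14D (9.5 ± 0.129%) and A38 in SNORD14E (11.6 ± 2.97%). A39 and G78 (12.2 ± 1.22%) of SNORD14A, and G53 (9.89 ± 1.24%) and G84 (7.76 ± 2.44%) of SNORD14E, were not listed under balanced dNTP and have no edgeR value. A53 (8.27 ± 1.06%) and G14 (7.5 ± 0.57%) completed the top of SNORD14D. Over aligned positions, the ratios of the deeper U14 copies correlated with Pearson's r between 0.654 and 0.768 (42 to 50 positions a pair), a description across positions that share most of their sequence.

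SNORD22 (U22) had its highest ratio at G101, in the run of U marked in its sequence, with 170 of 1160, 114 of 855 and 146 of 866 reads with T (14.9 ± 1.78%) and 0.213 ± 0.0231% under balanced dNTP. The log2 change was 6.29 (SE 0.324, edgeR adjusted p 6.2e-82). G24 (11.1 ± 0.607%) and C65 (10.6 ± 2.01%) followed. At C65 the replicates were at 12, 11.4 and 8.28%.

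The highest position of SNORA73A was G166, with 380 of 2611, 353 of 2203 and 309 of 2260 reads with T (14.7 ± 1.19%). The balanced libraries had 2 of 5873, 4 of 3774 and 1 of 3547 reads (0.0561%), and the log2 change was 8.25 (SE 0.231, edgeR adjusted p 3e-273), the largest among the named positions. The aligned position in SNORA73B, G164, had 8.8, 9.05 and 10.4%. All SNORA73A replicates lay above these. The copies differ 2 bases downstream (C168G in SNORA73A, position 166 in SNORA73B). C33 (10.5 ± 0.56%) and G194 (10.2 ± 0.604%) were the next highest in SNORA73A.

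SNORA73B led with A12, the only A among the 13 positions of at least 10%, where 444 of 3274, 435 of 2977 and 341 of 2616 reads had T (13.7 ± 0.803%), against 0.358 ± 0.0839% under balanced dNTP (log2 change 5.46, SE 0.168, edgeR adjusted p 1.7e-226). The same base of SNORA73A had 6.98, 5.9 and 6.18%, below every SNORA73B replicate. G130 (11.6 ± 0.797%) and G82 (11.3 ± 1.36%) followed in SNORA73B. Over 151 aligned positions the ratios of both copies correlated with r = 0.87 and Spearman's rho = 0.879, which describes positions of nearly the same sequence that may share reads.

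By reference base, G had the highest ratios. The mean over positions with a depth of at least 10 was 3.84, 3.94 and 3.69% for 286 G, 3.15, 3.23 and 2.98% for 272 C and 2.77, 2.83 and 2.5% for 257 A. G exceeded A by 1.12 ± 0.06 and C by 0.696 ± 0.00895 percentage points (exact paired permutation tests, p = 0.25 each). G was above A in each of the 9 genes compared, by 0.408 (SNORA73B) to 2.92 points (SNORD14C). Against C the direction turned in SNORD22 (-0.833 ± 0.279) and SNORA73B (-0.109 ± 0.0388). In the balanced libraries the means were 0.109% for G, 0.107% for C and 0.0843% for A.

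The base before a position went with larger differences than the base itself. This comparison was chosen after seeing the data. G after U had 6.34, 6.43 and 6.06% (116 positions), and G after C had 5.04 ± 0.143% (31 positions). G after A (1.64 ± 0.118%, 66 positions) and G after G (1.37 ± 0.101%, 73 positions) lay below, and none of their replicates overlapped those after U or C. For A, the mean was 4.41 ± 0.398% after U and 1.53 ± 0.144% after G. For C, it ranged only from 2.27 ± 0.172% after G to 3.58 ± 0.184% after U. The order was the same over the other listed positions of the series with a depth of at least 100 for A and C, and for G with the lowest pair exchanged: 6.64% after U, 4.54% after C, 2.02% after G and 1.82% after A. In the balanced libraries G after U had 0.131 ± 0.0369% and G after G 0.0883 ± 0.00583%.

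**Figure D5:**
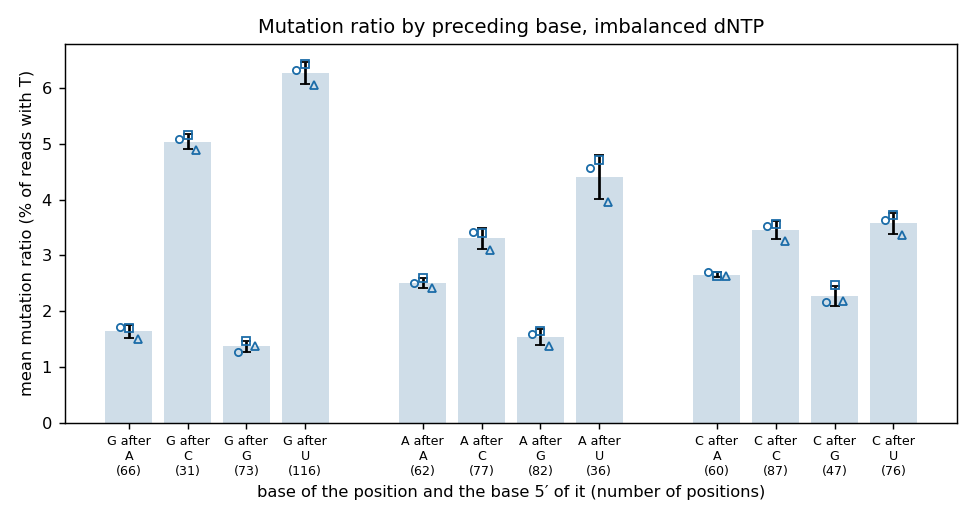
Mean mutation ratio (percent of reads with T) under imbalanced dNTP by base and preceding base, with the number of positions in parentheses. Bars and error bars are the mean and SD of the 3 replicates, and symbols are the replicates (circle 1, square 2, triangle 3). G after U stands highest at 6.28%, and G after G lowest at 1.37%.

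Positions with U on both sides (62) had 6.18, 6.5 and 5.99%, against 3.04, 3.09 and 2.84% for the other 753, a difference of 3.23 ± 0.153 points (exact paired permutation test, p = 0.25). G in this context had 8.32 ± 0.191% and A 6.14 ± 1.38%, whereas C had 2.86 ± 0.177% against 3.15 ± 0.123% elsewhere. The difference was 5.55 ± 0.236 points in SNORD14C and 4.24 ± 0.153 in SNORD22 but 0.535 ± 0.256 in SNORD118. In the balanced libraries these contexts had 0.135 ± 0.0702 and 0.0979 ± 0.0046%.

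The ends of the RNAs were compared with their inner parts. The first and last 20 nt had 3.51, 3.59 and 3.33% over 252 positions, against 3.17, 3.25 and 2.96% over 563 inner positions, a difference of 0.351 ± 0.018 points (exact paired permutation test, p = 0.25). The median depths were 789.5 and 1697 reads. With SNORD14C and SNORA73A as the only copies of U14 and U17 the difference was 0.169, and with ends of 10 and 30 nt it was 0.542 and 0.143. The 3′ 20 nt exceeded the inner parts by 0.635 ± 0.124 points and the 5′ 20 nt by 0.0441 ± 0.164 (exact permutation p = 0.75). Ends were higher than the inner part in every replicate of SNORD14A (by 1.43 ± 0.459), SNORD13 (0.448 ± 0.112), SNORD14C (0.325 ± 0.0614), SNORA73B (0.243 ± 0.0997) and SNORA73A (0.212 ± 0.118), and lower in SNORD22 (-0.266 ± 0.107) and SNORD118 (-0.177 ± 0.0268). By base, the ends were higher for G (by 0.719 ± 0.112) and A (0.314 ± 0.115) but lower for C (-0.1155 ± 0.0641; exact permutation p = 0.25 each). Among G after U, the 3′ 20 nt exceeded the inner parts by 0.959 ± 0.485 points (7.17 against 6.21%, higher in all 3 replicates, exact permutation p = 0.25), and both ends together by 0.154 points (p = 0.5). Among G not after U, the 3′ 20 nt exceeded them by 0.172 ± 0.148 points.

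RNAs with their own promoter and cap (SNORD118 and SNORD13) had 3.33 ± 0.149% and the intron-encoded RNAs 3.21 ± 0.141%, a difference of 0.115 ± 0.0412 points (exact paired permutation test, p = 0.25). This value depended on the copies counted (0.282 with 1 copy of each RNA), on the weighting (0.303 from summed reads) and on the depth filter (0.201 at a depth of at least 100). Among G after U the order was the reverse, with 5.46% in the capped and 6.55% in the intron-encoded RNAs, a difference of -1.09 points.

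The box motifs were searched on the strand of the gene as TGATGA (box C, starting in the first 70 nt), CTGA (box D, in the last 20 nt) and ACA (in the last 8 nt). ANANNA (box H) was searched in a fixed middle part of the gene, without regard to structure. Of 304 other SNORD genes, 70.4% hold the letters of box C and 90.1% those of box D in these windows. Of 212 other SNORA genes, 82.1% hold ACA and 75.9% a match to ANANNA. Box C was found in all U14 genes, SNORD118 and SNORD13 but by these letters not in SNORD22, and box D in all box C/D genes except SNORD14D. Positions inside the motifs (57) had 3.19 ± 0.0231% and the others 3.24 ± 0.151%, a difference of -0.0475 ± 0.131 points (exact paired permutation test, p = 0.75). It was -0.571 from summed reads, -0.203 with 1 copy of each RNA and -0.133 at a depth of at least 100 (exact permutation p = 0.25 each). By base, G inside the motifs was higher than other G by 1.34 ± 0.33 points, and A (-0.662 ± 0.0396) and C (-1.11 ± 0.113) were lower. G in the motifs that followed U had 5.29%, below the 6.48% of G after U outside them.

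Pooled over its genes, the group had lower ratios than the other box C/D and box H/ACA snoRNAs. At a depth of at least 100, 3.05 ± 0.139% of the reads of these snoRNAs had T, against 3.45 ± 0.104% in the other box C/D genes and 3.43 ± 0.13% in the other box H/ACA genes. The differences were -0.402 ± 0.0463 and -0.379 ± 0.0203 points and had the same sign in all 3 replicates (exact paired permutation test, p = 0.25 each). Single genes did not all follow. Over all positions listed under both reactions, SNORD14A (4.41%), SNORD14C (3.81%) and SNORD13 (3.56%) lay above the other box C/D genes (3.47%). SNORD118, SNORD14D, SNORD14E and SNORD22 lay below them. As means of positions, SNORA73A and SNORA73B together were 0.392 ± 0.0805 points below the box C/D genes of the group. RMRP, the RNA of the RNase MRP enzyme, which also cleaves the rRNA precursor, had 3.04 ± 0.0898%, a difference of 0.0114 ± 0.0571 points (exact permutation p = 1). As a mean of the position ratios the snoRNAs were higher than RMRP in all 3 replicates, by 0.157 ± 0.0459 points (exact permutation p = 0.25). U3, the snoRNA of the early cleavages of the 5′ part of the precursor, had 2.73 ± 0.101% under imbalanced dNTP, but 1.34 ± 0.0807% under balanced dNTP, where these snoRNAs had 0.0905 ± 0.00553%. The order of U3 and these snoRNAs under imbalanced dNTP turned with the weighting: U3 was lower by summed reads in all 3 replicates and higher as a mean of positions in all 3 (3.48 against 3.17%). By edgeR, 133 of 202 U3 positions were higher under imbalanced dNTP, 213 of 214 in RMRP, 2733 of 2976 in the other box C/D genes and 1818 of 2112 in the other box H/ACA genes.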

How the data were processed

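Nm-mut-seq of HepG2 caRNA was measured in 3 replicate pairs of imbalanced and balanced dNTP libraries. The authors trimmed reads with Cutadapt, mapped them to hg38 with TopHat2 (versions not given in the sources used here) and counted bases with JACUSA after removal of duplicates. The deposited values are raw counts of the reads with each base at a position in each library, and the deposited score was not used. Spike-in background values are not used here. A position not listed under balanced dNTP was given a ratio of 0.

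Positions were assigned to GENCODE v44 genes on their own strand. The members, lists and comparisons were chosen with earlier results of these data known. In each gene, the 3 passing positions with the highest mean ratio were named, and over the genes the 3 listed positions with the highest balanced ratio. Bases outside the genes were chosen after their values were seen. Ratios of classes are unweighted means over positions, and ratios of genes are summed reads with T over summed depth.

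The edgeR 4.0.16 quasi-likelihood F test in R 4.3.3 was run on reads with and without T, adjusted by Benjamini-Hochberg over 32284 positions. The model held library effects and a replicate block for the mutated share. The SE of a log2 change was derived from its F statistic. In simulated data with 200 changed positions among the 32284, 24% of the changes of 1 on the log2 scale, 42% of 2, 58% of 3 and 72% of 4 were recovered, and 8 of 32084 unchanged positions were called. The simulated counts had binomial spread only, and far fewer changed positions than the 73.9% called higher in the data. These rates therefore do not give the recovery or the false calls of the test on the data. Differences over replicates were tested by two-sided exact permutation. The labels pair the libraries, since each pair came from the same ligated RNA. At 24432 positions, deviations of log2 depth correlated within pairs at 0.746, 0.59 and 0.871, while libraries of replicates 1 and 2 also correlated with each other (0.699 and 0.599). The labels do not say whether replicates came from separate cultures, and p-values measure the spread between these samples. Depth per library is given with the results. Unique molecular identifiers were used, and intervals cover counting error only. Alternatives changed depth, reads with T, fold of input, the ratio, normalization, filter, test, block, end length, weighting and replicates. Sequences were read from hg38 with pysam 0.24.0, RefSeq spans from GRCh38.p14. Other steps were done in Python 3.11.15 (scipy 1.17.1, pandas 2.3.3, numpy 2.4.6, with matplotlib 3.10.9 for plots).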

Additional observations from a re-analysis of the deposited data

Results flagged for a closer look

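Positions of SNORD118 outside the annotated gene, which no comparison of the report used, had mutation ratios above those of the balanced libraries. At position 0 the mean was 35.1% under imbalanced and 0.79% under balanced dNTP. At position 136 it was 59.1% and 19.6%, at depths of 36 to 58 reads under imbalanced dNTP. The part of read ends in the values of both positions, and of mismatches other than T in those of position 136, was not tested.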

How the results depend on the processing

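The count of passing positions (712) was 110 with a mutation ratio of at least 0.05 and 13 with at least 0.1, by construction of the stricter criterion. The difference between box motifs and the rest (-0.0475 points) became 0.00179 without replicate 2 and ranged from -0.122 to 0.00179 when each replicate was left out, and it was -0.571 from summed reads, -0.203 with 1 copy of each RNA and -0.133 at a depth of at least 100. The relative depth (log2 -0.0289) became 0.0221 when summed depths were used, and the difference of positions with U on both sides (3.23 points) became -0.288 for C alone. The cause of these reversals was not tested. Leaving out each replicate gave 729 to 731 passing positions, 655 to 679 higher positions by edgeR, and differences of 2.9 to 3.03 points between reactions, 0.341 to 0.359 for ends, 1.09 to 1.15 for G minus A, 0.693 to 0.701 for G minus C, 0.0966 to 0.137 for capped RNAs, 3.15 to 3.28 for U on both sides, and -0.0522 to -0.0153 for the log2 relative depth. Without the replicate block, edgeR called 719 positions (710 with it) and the criteria with pooled input passed 720, so the block changed neither count by over 1.5 times. DESeq2 called 705, TMM 710, no depth filter 709, and Fisher's exact test in each replicate 617. Apart from splits by gene, base or preceding base, all other alternatives that were run kept the direction of the main comparisons. For C alone, ends were lower than inner parts (-0.1155 ± 0.0641 points), and capped RNAs lower than intron-encoded RNAs (-0.0386 ± 0.0401). Among G after U, capped RNAs were also lower (-1.085 ± 0.0646). Counts of passing positions in single genes moved by over 1.5 times in 21 cases, and no value of a single position moved. Apart from the stricter ratios, these were SNORD14A with at least 5 reads with T (14 against 25), and 2 genes with listing under balanced dNTP required. The latter were SNORD14A (13 against 25) and SNORD14E (23 against 37), and the group then had 662 passing positions. With 3 pairs no exact test over replicates could reach 0.05, and SNORD14A, SNORD14B and SNORD14E were limited by depth.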

Other observations

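Over the genes, the highest ratios under balanced dNTP stood on few reads. In the second SNORD22 locus, C103 had 0 of 6, 1 of 5 and 0 of 5 reads with T and A40 had 1 of 12, 0 of 7 and 0 of 8. In SNORD14B, G59 had 0 of 46, 1 of 20 and 0 of 28 under balanced dNTP, and 3 of 29, 2 of 24 and 1 of 30 under imbalanced dNTP. Exact copies of a window of 50 nt elsewhere in hg38 were found for the U17 pair alone, where 5 windows of each gene occur in the other. Other loci of at least 90% identity over at least 50 nt numbered 5 for SNORD13, 2 for SNORD118 and 1 for SNORD14B, besides the U17 pair, and reads of these genes could also align there.

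Beyond the annotated ends, few positions were listed. The base before SNORD14C, a C, lay at the edge of its reads with a depth of 462, 347 and 281 under imbalanced dNTP, and its log2 change in mutated share was 2.07 (SE 0.401, edgeR adjusted p 6.3e-07). The base after SNORA73B, a C, had 15 of 34, 7 of 32 and 18 of 36 reads with T (38.7 ± 14.8%), against 4 of 34, 3 of 31 and 3 of 27 under balanced dNTP (edgeR adjusted p 0.021). Both were chosen after their values were seen.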
